A study of Mus musculus with 20 samples.

Results

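The 10 mouse genes that encode the MNK kinases (Mknk1, Mknk2), the cap-binding proteins (Eif4e, Eif4e2, Eif4e3), the eIF4G scaffolds (Eif4g1, Eif4g2, Eif4g3) and the eIF4A helicases (Eif4a1, Eif4a2) were followed through the chromatin of sorted hematopoietic stem cells (HSC). They were chosen by gene symbol from 21627 protein-coding genes on chromosomes 1 to 19 and X, and all 10 were matched. KO MycHet mice carried Mx1-Cre+/-, mTORflox/flox and c-Myc+/flox, KO mice carried Mx1-Cre+/- and mTORflox/flox, and WT mice carried mTORflox/flox without Cre (Mx1-Cre-/-). All groups were adult and had received poly(I:C), which induces the Mx1 promoter. The WT mice thus share the floxed mTOR alleles and the injection but not the recombinase. The floxed c-Myc allele was in KO MycHet only. Mx1-Cre is active in interferon-responsive cells and not in HSC alone. ChIP-seq of H3K27ac, H3K4me3 and MYC had 1 KO and 1 WT library each, and ATAC-seq had 2 KO MycHet, 2 KO and 2 WT libraries of 50000 cells each. The 8 RNA-seq samples of the series were not analysed here.

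Translation of most mRNAs begins when eIF4E binds the 5′ cap and joins the scaffold eIF4G and the RNA helicase eIF4A to form the complex eIF4F. The MNK kinases dock on eIF4G and phosphorylate eIF4E on a single serine, downstream of the ERK and p38 MAP kinases, whereas mTOR controls eIF4E through its 4E-BP inhibitors. H3K4me3 marks active and poised promoters, H3K27ac marks active promoters and enhancers, ATAC-seq reads open chromatin, and MYC is a transcription factor that binds many promoters of growth and translation genes.

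Each list gives the peaks of 1 library, and a peak counted as lying at a gene end when it shared at least 1 bp with the 1 kb on either side of either annotated end (GRCm38.p6, the mm10 build). The lower end is the one with the smaller coordinate, and the upper end the other. The value given for a peak is the score the authors deposited, whose scale is not stated, and its percentile ranks it within its own list. H3K27ac had 20036 peaks in KO and 10078 in WT, H3K4me3 had 16019 in KO and 15089 in WT, and MYC had 22086 in KO and 8774 in WT. The ATAC-seq lists held 47214 and 53722 peaks in KO MycHet, 19174 and 72149 in KO, and 17303 and 66531 in WT. Read depth is unknown, and the part of list length in any difference below was not tested. The lower end of Mtor, the targeted gene, had a peak in 0 of 2 KO MycHet, 0 of 5 KO and 5 of 5 WT libraries. H3K4me3 marked 9 of 12 HSC genes in KO and 9 of 12 in WT, without Kit, Gata2 and Meis1 in KO and without Ly6a, Gata2 and Meis1 in WT. H3K27ac lay at 4 of these 12 genes in KO and 0 in WT, and MYC at 2 in KO and 1 in WT. Of lineage markers, H3K4me3 was at 1 of 4 B cell genes in KO and 0 in WT, 0 and 1 of 4 T and NK cell genes, 0 and 1 of 5 myeloid genes, 3 and 3 of 4 erythroid genes and 2 and 2 of 4 stromal and endothelial genes. ATAC-seq peaks lay at 10 and 9 of 12 HSC genes in KO MycHet, 4 and 12 in KO, and 7 and 10 in WT. B cell genes gave 1, 2, 0, 3, 1 and 2 in that order, and myeloid genes 3, 2, 0, 4, 0 and 3. T and NK cell genes gave 2, 1, 0, 2, 0 and 2, and erythroid genes 4, 3, 1, 3, 0 and 4. Stromal and endothelial genes gave 3, 3, 1, 2, 0 and 3. With 1 ChIP-seq library per genotype there is no replicate check, and 2 against 2 ATAC-seq libraries cannot give a two-sided exact permutation p below 0.33, so no test was made. ATAC-seq libraries of a genotype are separate samples per the labels, and nothing says whether they came from different mice. The protocol text of the first KO and first WT libraries names these 2 genotypes, and that of the other 4 names all 3, so the KO MycHet libraries share their protocol text with the second KO and second WT libraries only.

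The promoters below are those of 4 members on which MYC peaks or MYC motifs lay, 1 from each role in the complex. They are the 250 bases before a transcription start, 5′ to 3′ on the gene's strand, from the RefSeq promoter table of GRCm38.p6. Capitals mark CACGTG, the E-box that MYC and its partner MAX bind, and the variant CACGCG. The Mknk2 stretch is chr10:80676294-80676543 (minus strand), that of Eif4e is chr3:138527018-138527267 (plus strand, before the second of 2 listed starts), that of Eif4g1 is chr16:20672477-20672726 (plus strand) and that of Eif4a1 is chr11:69672424-69672673 (minus strand).
Mknk2: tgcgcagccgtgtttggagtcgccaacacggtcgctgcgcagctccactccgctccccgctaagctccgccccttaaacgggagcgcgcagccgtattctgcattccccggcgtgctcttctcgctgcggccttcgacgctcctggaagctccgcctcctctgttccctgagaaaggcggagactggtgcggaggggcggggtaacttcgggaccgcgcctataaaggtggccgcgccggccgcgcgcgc
Eif4e: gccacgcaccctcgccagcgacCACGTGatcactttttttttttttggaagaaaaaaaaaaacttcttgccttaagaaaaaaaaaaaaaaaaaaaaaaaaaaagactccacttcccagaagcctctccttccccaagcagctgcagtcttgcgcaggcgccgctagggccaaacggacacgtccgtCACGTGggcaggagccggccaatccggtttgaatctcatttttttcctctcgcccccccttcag
Eif4g1: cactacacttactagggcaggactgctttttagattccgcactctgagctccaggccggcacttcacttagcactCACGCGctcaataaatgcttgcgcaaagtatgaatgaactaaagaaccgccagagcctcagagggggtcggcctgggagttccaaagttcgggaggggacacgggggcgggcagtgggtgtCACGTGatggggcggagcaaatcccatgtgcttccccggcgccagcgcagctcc
Eif4a1: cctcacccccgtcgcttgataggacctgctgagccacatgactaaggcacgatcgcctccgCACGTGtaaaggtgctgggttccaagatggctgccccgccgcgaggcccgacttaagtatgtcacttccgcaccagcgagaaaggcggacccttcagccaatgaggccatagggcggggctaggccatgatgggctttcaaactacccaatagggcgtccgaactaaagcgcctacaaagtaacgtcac

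H3K4me3 lay at an end of 9 of the 10 genes in KO and of 9 in WT, against 54.3% and 52.9% of all protein-coding genes. H3K27ac lay at 8 members in KO and 4 in WT, where the shares of all genes were 39.6% and 14.6%. MYC lay at 6 members in KO and 2 in WT, with 22.3% and 10.3% of all genes. In pools of sorted cells, a mark in fewer cells and a weaker mark in every cell cannot be told apart. Mknk2 and Eif4a1 had a peak at an end in all 12 libraries. Eif4e3 and Eif4g3 had the fewest, with 4 libraries each, though the first listed start of Eif4g3 lies more than 1 kb inside the gene. H3K27ac, H3K4me3, MYC and both ATAC-seq libraries together marked 6 members in KO (17.2% of all genes) and 2 in WT (5.11%).

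**Figure D1:**
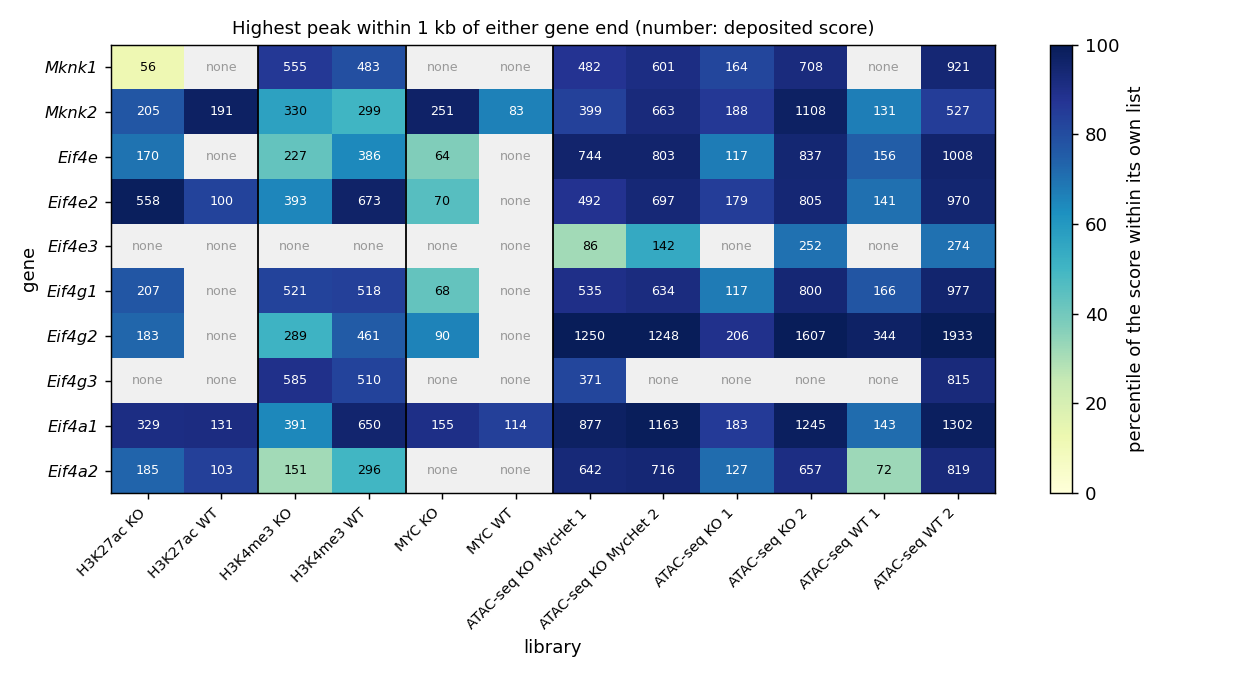
Highest-scoring peak within 1 kb of either end of the 10 genes (rows) in the 12 libraries (columns), with the deposited score as the number, its percentile within its own list as the colour and grey cells for no peak. The H3K4me3 columns are filled for 9 genes in KO and 9 in WT, and the H3K27ac and MYC columns hold more peaks in KO (8 and 6) than in WT (4 and 2).

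Within 1 kb of its ends, Mknk2 (gene ID 17347) carried all 3 ChIP signals in both genotypes, all at its upper end, which is its start. MNK2, its product, keeps a high basal activity in cells. The gene spans 11.0 kb of chromosome 10 (80665318 to 80676293, minus strand). Its H3K27ac peak scored 205 in KO (percentile 77.0, 5495 bp wide) and 191 in WT (percentile 97.3, 1125 bp). Both lay upstream of the start, from 5814 to 320 bp before it in KO and from 1960 to 836 bp before it in WT. The WT peak thus stood near the top of its own, shorter list, and the KO peak covered all of it. H3K4me3 formed 1 peak of 6049 bp over the start in KO (score 330.1) and 2 abutting peaks of 3011 and 1933 bp in WT (299 and 186).

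MYC at Mknk2 had the highest percentile of any member's MYC peak, 96.8 in KO, where a peak of 2623 bp (score 251) reached from 2509 bp before the start to 113 bp after it. The WT peak counted at this end scored 82.6 (percentile 66.4, 670 bp) and lay 824 to 1493 bp before the start. A further WT peak, outside the 1 kb window, lay 1548 to 2551 bp before the start and scored 158 (percentile 92.8). The WT peaks around this end thus ended 824 bp before the start, and the KO peak covered it. Another WT peak outside the window lay 1140 to 1641 bp beyond the lower end, with a score of 56.55 (percentile 25.3). The 250 bases printed above for Mknk2 hold neither CACGTG nor CACGCG, and they hold TATAAA, as 11.7% of promoters did. ATAC-seq peaks at the start scored 399 and 663 in KO MycHet, 188 and 1108 in KO, and 131 and 527 in WT. The start was open in all 6 libraries, with the lower score of KO and of WT in the library with the shorter list. Within their own lists these peaks had percentiles of 83.5 and 92.5 in KO MycHet, 86.3 and 97.5 in KO, and 67.1 and 84.7 in WT.

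Mknk1 (gene ID 17346) had H3K4me3 in both genotypes, H3K27ac in KO only and no MYC at its ends. MNK1, its product, is the form most strongly induced by ERK and p38 signalling. The gene covers 41.3 kb of chromosome 4 (115837943 to 115879256), and its first listed start lies 1255 bp inside the lower end, on the plus strand. H3K4me3 covered this start with a score of 555 in KO (percentile 86.3, 2844 bp) and 483 in WT (percentile 79.0, 2639 bp). The H3K27ac peak of KO near the start was weak, with a score of 56.3 (percentile 11.9, 619 bp), and the WT list had none there or in the rest of the gene. The stronger H3K27ac peak of the gene lay 8.9 to 10.6 kb inside it in KO, with a score of 136 (percentile 61.5). MYC was called in KO alone, 20.5 kb inside the gene, with a score near the lowest of its list (51.7, percentile 6.1). The bases before the Mknk1 start do hold CACGTG, 70 to 65 bases before it, and the nearest MYC peak of KO lay 19319 bp away.

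Open chromatin at Mknk1 was the same set of sites in nearly every library. The start region scored 482 and 601 in KO MycHet, 164 and 708 in KO, and 133 and 921 in WT. All 6 libraries were open there, but the first WT peak began 1006 bp inside the gene and so was not counted at the end. The site 9.1 to 10.6 kb inside the gene, the one under the KO H3K27ac peak, scored 214 and 226 in KO MycHet, 88.1 and 415 in KO, and 78.5 and 189.6 in WT. This site was thus open in all 6 libraries, WT included, although H3K27ac was called there in KO alone. A site that spanned 19.2 to 19.8 kb in the first KO library was also open in all 6, and 1 at 10.9 to 12.5 kb in all but the first WT library.

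**Figure D2:**
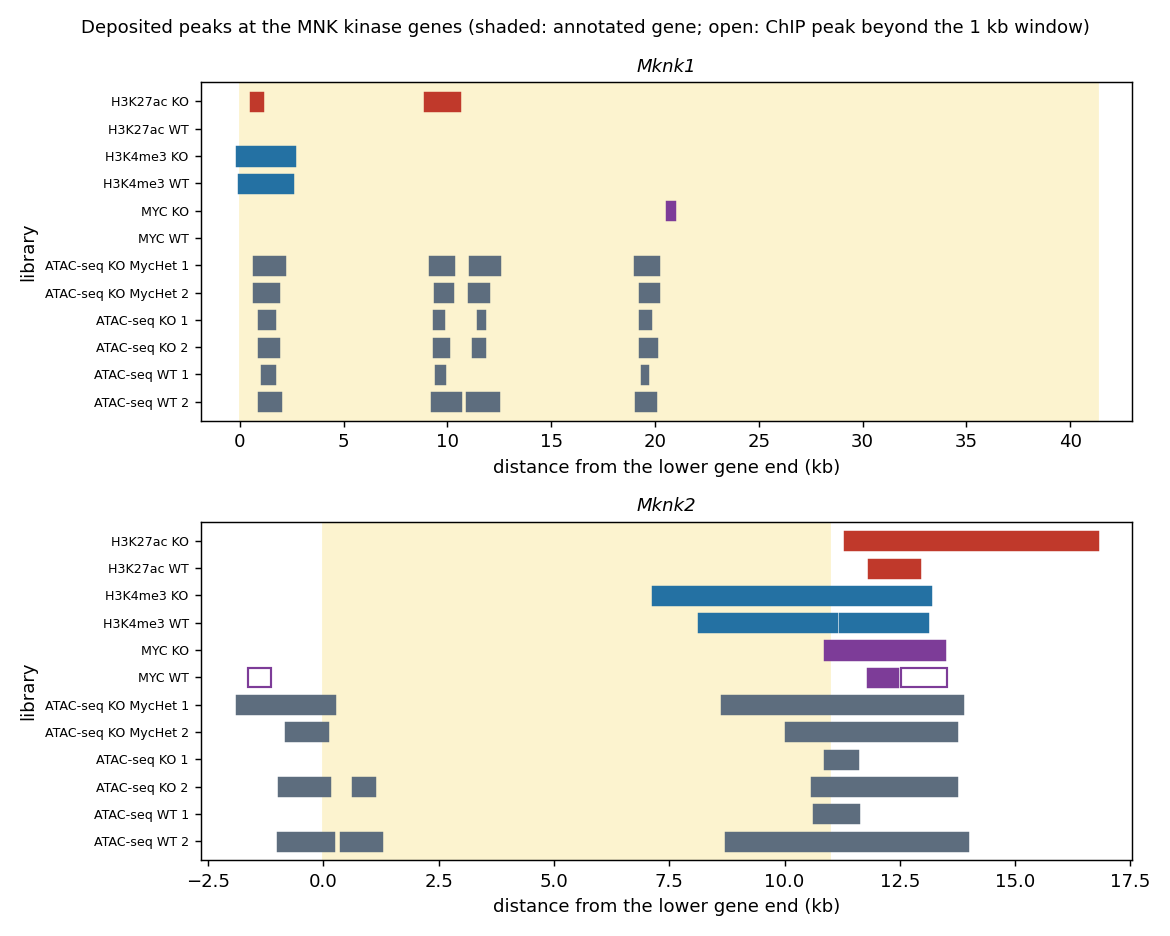
Peaks of the 12 libraries (rows) along Mknk1 and Mknk2, as distance from the lower gene end in kb, with the annotated gene shaded and ChIP peaks up to 3 kb beyond the gene but outside the 1 kb window drawn open. At Mknk1 the ATAC-seq sites recur from library to library and H3K27ac appears in KO alone. At Mknk2 the KO peaks of H3K27ac, H3K4me3 and MYC are each wider than any WT peak of the same target. There, WT has 2 peaks of H3K4me3 and 2 of MYC around the upper end, and a further MYC peak beyond the lower end.

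Eif4e (gene ID 13684), the cap-binding subunit itself, had H3K4me3 in both genotypes and MYC in KO only. It spans 33.5 kb of chromosome 3 (138526191 to 138559696, plus strand), with 1 start at the lower end and a second start 1077 bp further in. H3K4me3 covered both starts and scored 227 in KO (5674 bp) and 386 in WT (4034 bp). H3K27ac in KO formed 2 peaks, of 998 bp (93.1) over the first start and of 1213 bp (170.3, percentile 69.9) over the second. H3K27ac in WT was a peak of 327 bp with a score of 55.8 (percentile 21.8) that began 1079 bp inside the gene, 79 bp past the window. Eif4e therefore counted as KO only at the gene ends, while at the second start both genotypes had an H3K27ac peak.

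The MYC peak of KO at Eif4e scored 64.5 (percentile 37.2) and lay 15 to 638 bp after the first start. WT had no MYC peak at or in the gene. The promoter of the second start, printed above, holds CACGTG at 228 to 223 and at 64 to 59 bases before that start. These lay 211 and 375 bp beyond the MYC peak, inside no MYC peak of either genotype. ATAC-seq scored 744 and 803 in KO MycHet, 117 and 837 in KO, and 156 and 1008 in WT. Peaks of all 6 libraries covered the second start of Eif4e. The first start was covered in all but the first KO and first WT libraries, whose peaks began 71 and 519 bp after it. Within their own lists these peaks had percentiles of 95.4 and 95.5 in KO MycHet, 67.5 and 94.4 in KO, and 75.1 and 95.4 in WT.

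Eif4e2 (gene ID 26987) encodes 4EHP, a cap-binding protein that represses translation with its partner GIGYF2. It lies on chromosome 1 (87213911 to 87240488, plus strand). Its H3K27ac peak ranked highest of the 10 genes in KO, with a score of 558 (percentile 98.8, 2725 bp), and in WT there were 2 peaks of 100.0 and 51.0 (percentiles 82.5 and 4.1, 909 and 415 bp). The KO peak also reached within 1 kb of an end of Chrng, a muscle acetylcholine receptor gene next to it. H3K4me3 scored 393 in KO (percentile 65.2, 4807 bp) and 673 in WT (percentile 96.1, 3048 bp). The KO H3K27ac peak and the WT H3K4me3 peak thus each stood near the top of their own list. MYC was called in KO only, 254 to 828 bp after the start, with a score of 69.9 (percentile 45.7), and neither MYC motif was in the 250 bases before the start. ATAC-seq scored 492 and 697 in KO MycHet, 179 and 805 in KO, and 141 and 970.4 in WT, so the start was open throughout.

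Eif4e3 (gene ID 66892), a cap-binding family member that holds the cap without the usual pair of stacking tryptophans, was the member without any ChIP peak at its ends. It spans 71.0 kb of chromosome 6 (99621879 to 99692873). Its H3K4me3 lay inside the gene at 2 sites, 33.1 to 35.2 kb and 42.8 to 46.1 kb from the lower end in KO. The site near 44 kb scored 473 in KO and 454 in WT, and that near 34 kb scored 183 in KO and 81.3 in WT. H3K27ac was called at both sites in KO (53.2 and 91.2) and at neither in WT, where a peak of 67.6 lay at 49.0 kb on no H3K4me3 or KO H3K27ac peak. ATAC-seq was open at both sites in all 6 libraries. The larger site scored 316 and 360.3 in KO MycHet, 78.4 and 424 in KO, and 104 and 568 in WT. The upper end, shared with Gpr27, scored 85.6 and 142 in KO MycHet, none and 252 in KO, and none and 274 in WT. MYC was absent from the gene in both lists.

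Eif4g1 (gene ID 208643), the main scaffold and the docking site of the MNK kinases, had H3K27ac and MYC at its ends in KO only. It lies on chromosome 16 (20672720 to 20692883, plus strand). The H3K27ac peak of KO at the start scored 207 (percentile 77.3, 2632 bp), and WT had no H3K27ac peak at or in the gene. H3K4me3 at the start was present in both, with 521 in KO (4097 bp) and 518 in WT (3520 bp). The MYC peak of KO covered the start, from 322 bp before it to 291 bp after it, with a score of 67.8 (percentile 42.6). The CACGTG at 54 to 49 bases and the CACGCG at 175 to 170 bases before the start, capitalised above, both lay inside this peak. ATAC-seq at the start scored 535 and 634 in KO MycHet, 117 and 800.0 in KO, and 166 and 977 in WT, open in all 6. The upper end, shared with Fam131a, was also open in all 6 and had H3K4me3 of 93.1 in KO and 106 in WT and H3K27ac of 52.7 in KO alone.

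Eif4g2 (gene ID 13690) encodes DAP5, a scaffold that lacks the eIF4E-binding region. It lies on chromosome 7 (111067985 to 111083030), and its peaks lay at the upper end. H3K27ac was called there in KO only, with a score of 183 over 5318 bp (percentile 72.8). H3K4me3 scored 289 in KO (6644 bp) and 461 in WT (5137 bp). MYC was called in KO only, with 89.8 (percentile 65.9), the highest percentile among the members whose MYC peak was in KO only, and a further KO peak of 50.7 lay in the gene. ATAC-seq here scored higher than at any other member in every library: 1250.1 and 1248 in KO MycHet, 206 and 1607 in KO, and 344 and 1933 in WT. The percentiles of these 6 peaks were between 88.9 and 99.9, so the site ranked high by score within each list.

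Eif4g3 (gene ID 230861), a paralogous scaffold, had H3K4me3 in both genotypes and neither H3K27ac nor MYC at its annotated ends. It is the longest member, with 215.3 kb of chromosome 4 (137991779 to 138207086, plus strand), and its first listed start lies 1676 bp inside the lower end. H3K4me3 covered this start with 585 in KO (percentile 89.2) and 510.3 in WT (percentile 82.6). H3K27ac of KO lay 478 to 1690 bp after the start (119.5, percentile 55.9), where WT had none. Deeper in the gene, at 66.9 to 68.4 kb, H3K27ac was called in both, with 132 in KO and 71.5 in WT. WT had 3 more H3K27ac peaks in the gene (51.0, 82.0 and 80.0), on no H3K27ac peak of KO. ATAC-seq at the start scored 371 and 433 in KO MycHet, 97.2 and 549 in KO, and none and 815 in WT. WT thus held both the highest value and the library without a peak. Each MYC list had 1 weak peak in the body, at 178.9 kb in KO (56.7) and at 115.6 kb in WT (63.2).

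**Figure D3:**
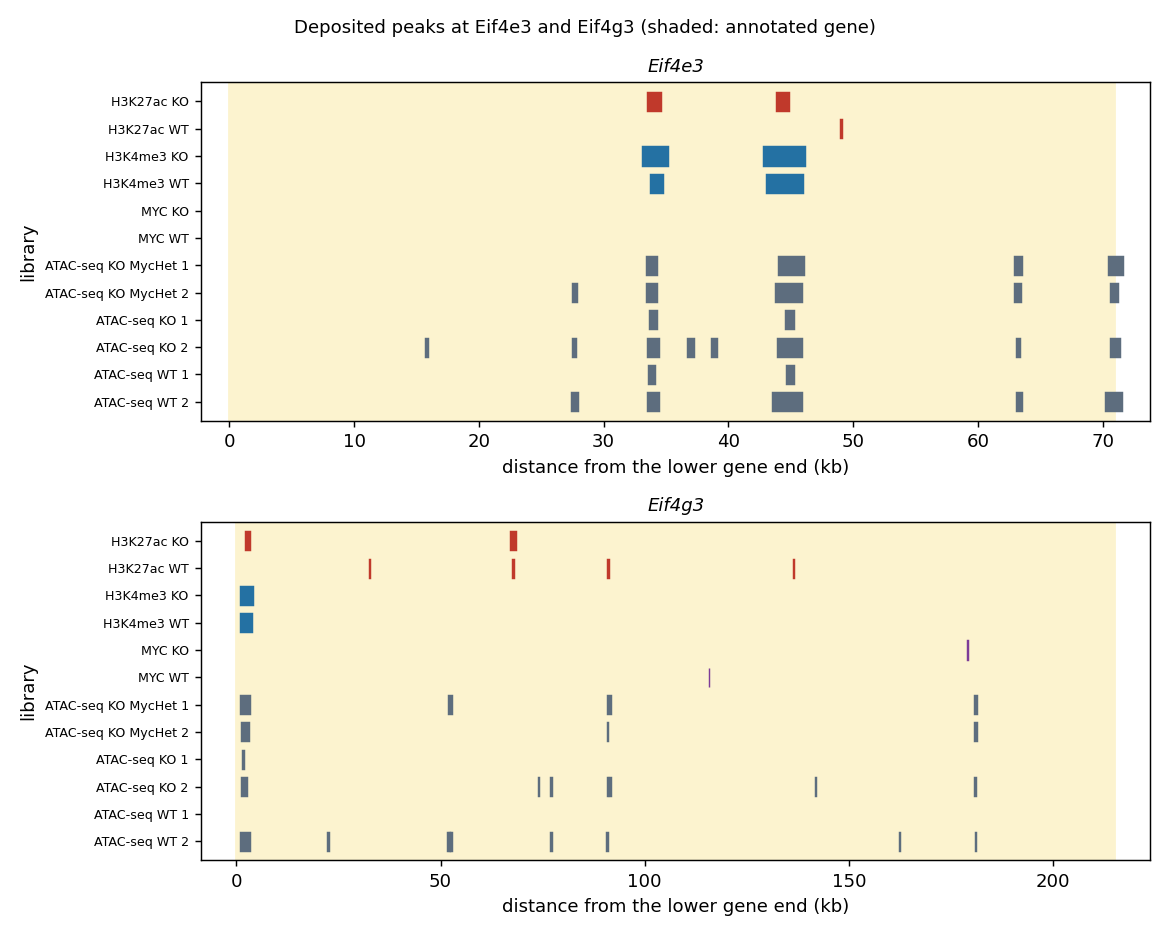
Peaks of the 12 libraries (rows) along Eif4e3 and Eif4g3, as distance from the lower gene end in kb, with the annotated gene shaded. The H3K4me3 of Eif4e3 and the ATAC-seq sites open in all 6 libraries stand near 34 and 44 kb inside the gene, and the H3K4me3 of Eif4g3 lies at its lower end, with scattered ATAC-seq peaks further in.

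Eif4a1 (gene ID 13681), the main eIF4A helicase, had every mark in both genotypes. It is the shortest member, 5.5 kb on chromosome 11 (69666936 to 69672423, minus strand), and its start at the upper end lies within 1 kb of Senp3, so peaks there may belong to either gene. H3K27ac scored 329 in KO (percentile 91.0, 3757 bp) and 131 in WT (percentile 91.4, 1368 bp), high in each list. H3K4me3 scored 391 in KO (6356 bp) and 650.5 in WT (4610 bp). MYC scored 155 in KO (percentile 89.9, 2524 bp), and WT had 2 peaks of 114 (percentile 83.8) and 51.8 (percentile 8.9) within the same stretch. The CACGTG at 189 to 184 bases before the start, capitalised above, lay inside the MYC peak of KO and inside the stronger WT peak. ATAC-seq scored 877 and 1163 in KO MycHet, 183 and 1245 in KO, and 143 and 1302 in WT, open in all 6.

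Eif4a2 (gene ID 13682), the paralogous helicase, had both histone marks in both genotypes and no MYC peak. It covers 6.7 kb of chromosome 16 (23107468 to 23114132, plus strand). H3K27ac scored 185 in KO over 5009 bp and 103 in WT over 545 bp. H3K4me3 scored 151 in KO over 7960 bp and 296 in WT over 6634 bp, the widest H3K4me3 peak of the 10 genes in both lists, and it also reached an end of Rfc4. ATAC-seq at the start scored 642 and 716 in KO MycHet, 127 and 657 in KO, and 72.5 and 819 in WT. Of the helicases, Eif4a1 thus carried MYC in both genotypes and Eif4a2 in neither.

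H3K27ac lay within 1 kb of an end in KO only at Mknk1, Eif4e, Eif4g1 and Eif4g2, of which Eif4e had a WT peak 79 bp past this window. These 4 of 10 members stand against 25.8% of all protein-coding genes. With a window of 500 bp the 4 were Mknk2, Eif4e, Eif4g1 and Eif4g2 (25.4%), and with 2.5 kb they were Mknk1, Eif4g1, Eif4g2 and Eif4g3 (27.5%), so Eif4g1 and Eif4g2 were KO only at all 3 widths. No member was WT only (0.768% of all genes), and Mknk2, Eif4e2, Eif4a1 and Eif4a2 had the mark in both (13.8%). At the 4 genes that were KO only with the 1 kb window, the KO peaks also overlapped H3K4me3 of both genotypes and open chromatin in all 6 ATAC-seq libraries. The share of all KO-only genes with such overlap was not computed. With both lists limited to their 10078 highest scores, 3 members were KO only, namely Eif4e, Eif4g1 and Eif4g2 (18.4% of all genes), and 0 were WT only (1.78%). Counted at the listed starts of 8 members alone, Mknk1, Eif4g1 and Eif4g3 were KO only (26.2% of genes with a listed start) and 0 were WT only (0.701%).

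MYC was KO only at Eif4e, Eif4e2, Eif4g1 and Eif4g2, 4 of 10 members against 14.4% of all genes. No member was WT only (2.35%), and Mknk2 and Eif4a1 were bound in both (7.93%). The 4 KO-only peaks overlapped H3K27ac of KO, H3K4me3 of both genotypes and ATAC-seq peaks of all 6 libraries. How often this held for MYC KO-only peaks of all genes was not computed. Their percentiles ran between 37.2 and 65.9 of the KO list, and those of Mknk2 and Eif4a1 were 96.8 and 89.9. With 8774 peaks in each list, the KO-only count was 1 (Eif4g2) against 5.66% of all genes, and 0 members were WT only (4.59%). At listed starts alone, Eif4e, Eif4e2 and Eif4g1 were KO only (14.4%) and 0 of the 8 were WT only (2.19%). With peaks scoring at least 100, the KO-only count was 1 (Mknk2, whose WT peak in the window scored 82.6) against 6.17% of all genes. CACGTG was found before a start of 4 of the 8 members with a listed start (Mknk1, Eif4e, Eif4g1, Eif4a1), some of which have several starts, and in 6.7% of 21044 promoters of the same length. CACGCG, read on both strands, was found at 2 of 8 (Eif4e, Eif4g1) and in 10.1% of promoters. Members were counted over any of their starts and the percentages over single promoters, so these are unlike units. The share of all genes with a motif at any start was not computed. Eif4e held CACGTG before its second start only, and CACGCG before its first only. Eif4e2 had a MYC peak in KO and neither motif in its promoter window, and Mknk1 had an E-box and no MYC peak at its start.

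**Figure D4:**
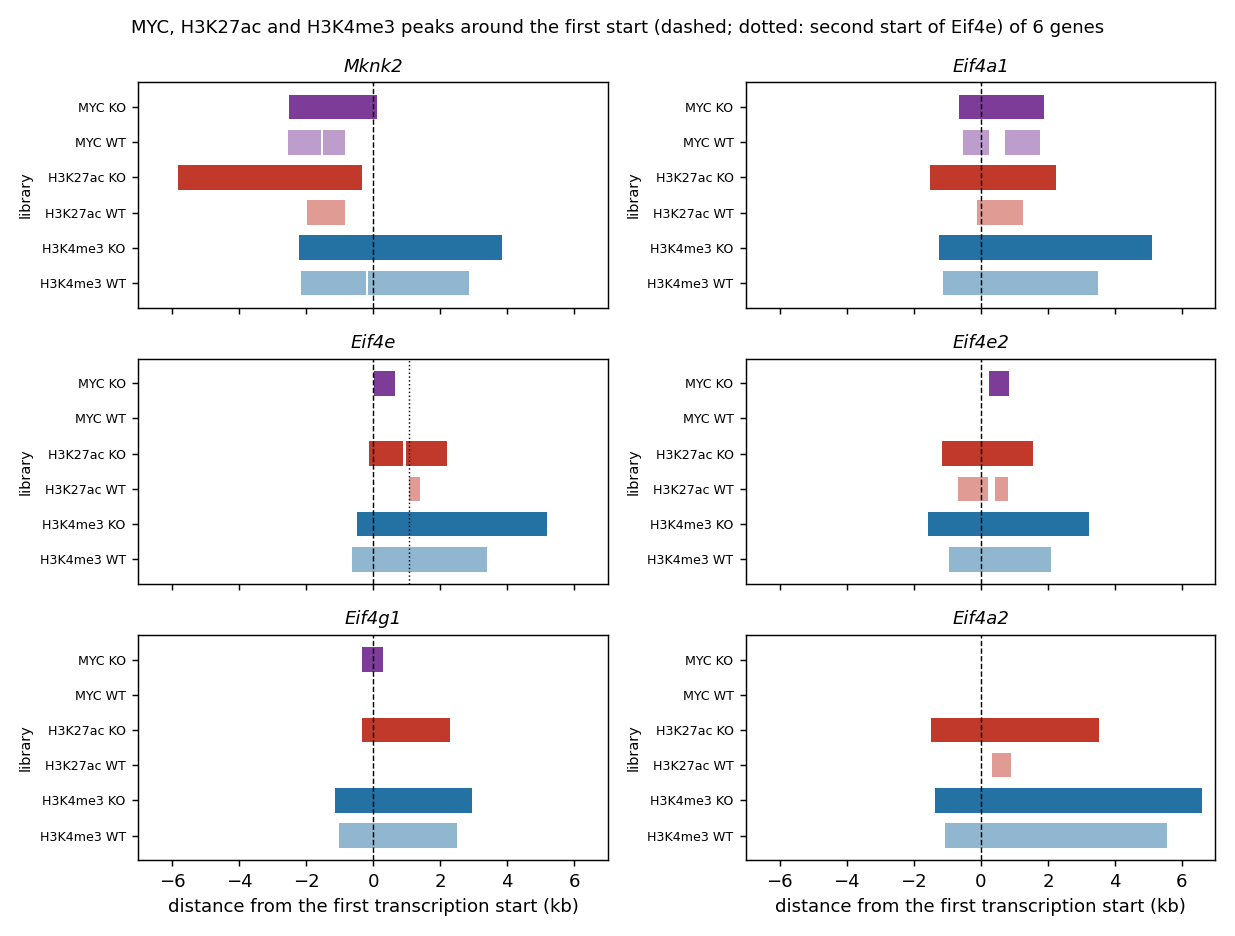
Peaks of MYC, H3K27ac and H3K4me3 in KO and WT (rows, 1 library each) around the first listed start of 6 genes, as distance from that start in kb in the direction of transcription, with WT drawn paler. MYC is present in both genotypes at Mknk2 and Eif4a1, in KO alone at Eif4e, Eif4e2 and Eif4g1, and in neither at Eif4a2.

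H3K4me3 was at an end of the same 9 genes in both genotypes (51.4% of all genes), and no member was KO only (2.95%) or WT only (1.52%). None was KO only or WT only with lists of equal length (2.35% and 1.91% of all genes) or at listed starts alone (2.43% and 1.42%). The widest H3K4me3 peak was wider in KO at 9 of 9 genes, as it was at 92.2% of all genes with a peak in both lists. The median width over these 9 genes was 5674 bp in KO and 3520 bp in WT, against 3287 bp and 2662 bp over all genes. The median ratio of KO over WT width was 1.29 for the members and 1.22 for all genes. H3K27ac was wider in KO at 4 of 4 genes with a peak in both (99.9% of all such genes), with median widths of 4383 bp in KO and 1017 bp in WT. Its median ratio was 3.94 for the members and 4.10 for all genes. The widest MYC peak was wider in KO at both Mknk2 and Eif4a1 (89.6% of all such genes). WT had 2 MYC peaks around the start of each of these genes, so their whole span was also measured. At Mknk2 this included the peak beyond the window upstream of the start. The span at Mknk2 was 2623 bp in KO and 1728 bp in WT, a ratio of 1.52, and at Eif4a1 it was 2524 bp in KO and 2291 bp in WT, a ratio of 1.10. By span, the ratio was 1.21 for H3K4me3 at Mknk2 and 1.81 for H3K27ac at Eif4e2, where WT also had 2 peaks.

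**Figure D5:**
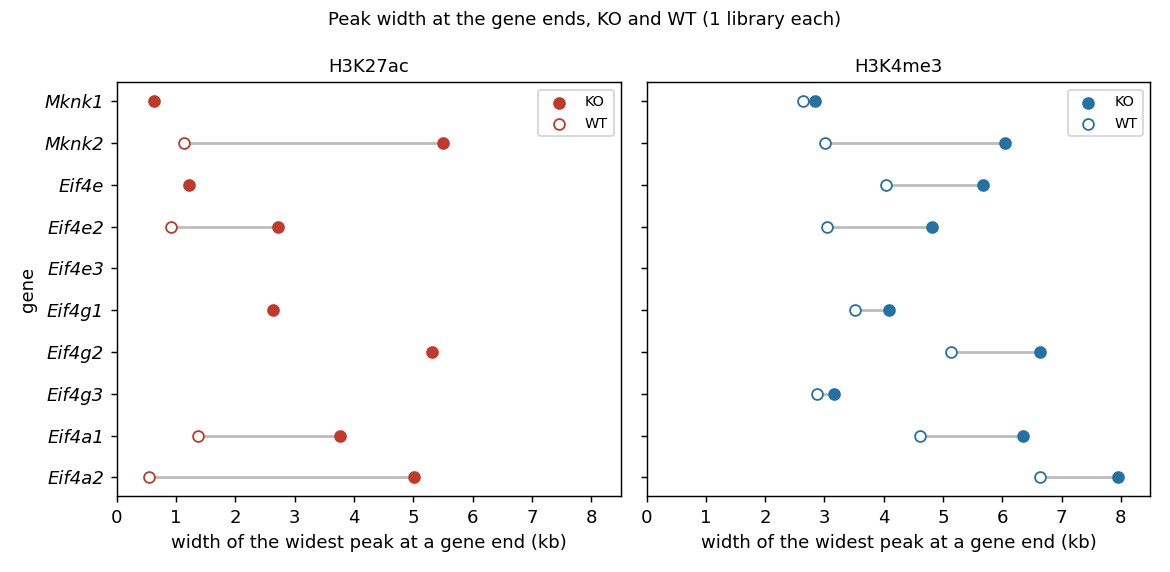
Width in kb of the widest H3K27ac (left) and H3K4me3 (right) peak at an end of each gene, with filled points for KO and open points for WT, 1 library each. Every H3K4me3 peak is wider in KO. The largest gap is at Mknk2, where WT had 2 peaks and only the wider is drawn. Their span there was 4996 bp in WT against 6049 bp in KO. H3K27ac points without a partner are genes with a peak in KO alone.

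No member's ends were open in both libraries of a genotype and closed in both of another. In the order of the libraries, ATAC-seq peaks lay at an end of 10 and 9 members in KO MycHet (62.0% and 62.3% of all genes), 8 and 9 in KO (44.6% and 65.7%), and 7 and 10 in WT (44.7% and 66.1%). Both libraries of a genotype were open at 9 members in KO MycHet (59.9%), 8 in KO (44.6%) and 7 in WT (44.6%). Among libraries with the same protocol text, the counts were 8 in the first KO against 7 in the first WT library, and 10 and 9 in KO MycHet and 9 in the second KO against 10 in the second WT library. All 6 libraries were open at 7 members (40.0%), that is at all but Mknk1, Eif4e3 and Eif4g3. Peaks nonetheless covered the first listed start of Mknk1 in all 6 libraries, and that of Eif4g3 in all but the first WT library. No member was open in both KO and neither WT library (0.0277%) or in both WT and neither KO library (0.0231%). None was open in both KO MycHet and neither KO library (0.412%), or in the reverse case (0.0416%). None was open in both KO MycHet and neither WT library (0.361%), or in the reverse case (0.0694%). Merging the ATAC-seq peaks gave 35 regions at or in the 10 genes, of which 13 were open in all 6 libraries and 8 in a single library. None of the 35 was open in both libraries of a genotype and neither of another. Merged regions were not counted over all genes, so these region counts describe the members alone.

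Away from the ends, peaks inside the genes came mostly from Mknk1, Eif4e3 and Eif4g3. Some of these lay at starts more than 1 kb inside the annotated gene. ATAC-seq peaks over the start of Eif4g3 in KO MycHet 2, KO 1 and KO 2 counted here, as did that over the start of Mknk1 in WT 1. The H3K27ac peaks near the start of Eif4g3 in KO and near the second start of Eif4e in WT also counted. The same rule was applied to all genes. Over 426.0 kb of gene body, H3K27ac had 5 peaks in KO and 6 in WT, which is 1.17 and 1.41 per 100 kb against 0.686 and 0.334 over all genes. The WT count rested on 4 peaks in Eif4g3. H3K4me3 had 2 body peaks in KO and 2 in WT, all in Eif4e3, or 0.469 per 100 kb in each against 0.32 and 0.292 over all genes. MYC had 3 in KO and 1 in WT, or 0.704 and 0.235 per 100 kb, against 0.852 and 0.324 over all genes. ATAC-seq had 10 and 11 in KO MycHet, 7 and 19 in KO, and 5 and 16 in WT. Per 100 kb this is 2.35 and 2.58 in KO MycHet, 1.64 and 4.46 in KO, and 1.17 and 3.76 in WT, against 1.86 and 2.21, 0.577 and 3.09, and 0.485 and 2.83 over all genes in the same libraries.

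Of 27 other genes of the cap-binding and MNK pathway, all matched, H3K27ac lay at an end of 21 in KO and 11 in WT (39.6% and 14.6% of all genes). It was KO only at 11 (25.8%), led by Gigyf2 (338), the partner of 4EHP, the nuclear cap-binding subunit gene Ncbp1 (311) and Spry2 (265), a regulator of the MAP kinase pathway, and WT only at 1 (0.768%), Hnrnpa1 (106), an RNA-binding protein that MNK phosphorylates. MYC lay at 10 in KO and 6 in WT (22.3% and 10.3%). It was KO only at 6 (14.4%), led by Gigyf2 (83.4), Paip2 (78.5), a poly(A)-binding protein inhibitor, and the MAP kinase kinase gene Map2k2 (68.8). It was WT only at 2 (2.35%), the 4E-BP1 gene Eif4ebp1 (55.8) and Ncbp1 (52.0). H3K4me3 lay at 20 in KO and 23 in WT (54.3% and 52.9%), with 0 KO only (2.95%) and 3 WT only (1.52%), led by the p38 gene Mapk14 (113) and Dusp6 (65.1), an ERK phosphatase. Gigyf2 was thus KO only for both H3K27ac and MYC, while its partner Eif4e2 was KO only for MYC and had H3K27ac in both genotypes. ATAC-seq peaks lay at an end of 23 and 23 of the 27 in KO MycHet (62.0% and 62.3%), 22 and 23 in KO (44.6% and 65.7%), and 21 and 24 in WT (44.7% and 66.1%).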

How the data were processed

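H3K27ac, H3K4me3 and MYC ChIP-seq and ATAC-seq of 12 libraries were used, each as a peak list that the authors made from 1 library. The deposited value per peak is a score in the fifth column, no lower than 50.0, whose scale is not stated. It was used for description and for ranks within 1 list. The build was mm10 and CASAVA was named as a tool, per the submitters' processing notes. The aligner is not given in the sources used here, nor are the peak caller's settings, any input control and the ATAC-seq read shift. Without counts in the lists, depth is unknown and no interval could be given.

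Chromosomes 1 to 19 and X were analysed, with positions counted from 1. Gene positions, starts and promoter sequences came from RefSeq tables of GRCm38.p6. KO only means a KO peak and no WT peak within 1 kb of either end. Overlaps were computed with Python 3.11.15, pandas 2.3.3 and numpy 2.4.6, were checked against bedtools 2.31.1 and were tested on simulated data. Figures used matplotlib 3.10.9. All 10 members are named. Of the pathway genes, the 3 with the highest KO score among KO-only genes and the 2 with the highest WT score among WT-only genes are named for each ChIP target. Pathway genes that share a member's pattern of presence over the 12 libraries are also named, up to 3 per pattern in alphabetical order. The members, the lists and the alternatives were chosen with earlier results of these data known. The search of ChIP peaks up to 3 kb beyond a gene, that of all listed starts for motifs, and the spans of split peaks were added after the values were seen. Alternatives were windows of 500 bp and 2.5 kb, scores of at least 100, equal list lengths, 50% overlap, starts only, and each ATAC-seq library left out.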

Additional observations from a re-analysis of the deposited data

How the results depend on the processing

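Of 192 recomputed counts of members, 180 equalled the reported count or lay within 1.5 times of it, and 12 did not. The 180 include the counts of 0 that stayed 0. The window of 2.5 kb and the count at transcription starts alone moved none of them beyond that. Starts were counted over 8 members and the reported counts over 10, so that comparison is not of like sets. MYC at an end in WT, found at 2 members, was found at 1 (Eif4a1) with a window of 500 bp, with scores of at least 100 and with 50% overlap (8.54%, 2.8% and 9.51% of all genes, against 10.3%). MYC at an end in KO, found at 6, was found at 2 with scores of at least 100 and at 3 with equal list lengths (8.18% and 11.4% of all genes, against 22.3%). KO-only MYC, found at 4, was found at 1 under each of these (Mknk2 and Eif4g2, with 6.17% and 5.66% of all genes, against 14.4%). Members may change where a count does not: H3K27ac KO-only held Mknk1, Eif4g1 and Eif4g3 at starts alone (3 members), and with 2.5 kb Eif4e had H3K27ac in both genotypes. Leaving out each ATAC-seq library in turn gave ranges of 0 to 1 for every KO MycHet and no KO library (Eif4g3 without KO MycHet 2, 1.13% of all genes, and Eif4e3 without KO 2, 15.5%), 0 to 1 for every WT and no KO library (Eif4g3 without WT 1, 2.35%), 0 to 1 for every KO and no WT library (Mknk1 without WT 2, 4.56%) and 0 to 2 for every KO MycHet and no WT library (Mknk1 and Eif4e3 without WT 2, 15.4%). These ranges concern the annotated ends alone. ATAC-seq peaks covered the first listed start of Eif4g3 in both KO libraries and that of Mknk1 in both WT libraries. Body peak counts moved by more than 1.5 times in 9 of 12 libraries with scores of at least 100 and in 12 of 12 when the ends were included. By the counting rule, a score minimum can only remove body peaks and including the ends can only add them. No paired analysis was possible because presence or absence of a peak in 1 or 2 libraries per genotype gives no fit in which a replicate block could stand. Unknown depth limits every absence: a missing peak may have been below the calling threshold.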

Other observations

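The 10 genes fell into 7 patterns when each was written as presence or absence of a peak at its ends in the 12 libraries, and these are descriptions without a test. Mknk2 and Eif4a1 shared the full pattern with 916 protein-coding genes in all (4.24%), among them the 4E-BP2 gene Eif4ebp2. Eif4e, Eif4g1 and Eif4g2 had an identical pattern of 10 libraries, without H3K27ac and MYC in WT, which 1292 genes had (5.97%), Dap and Gigyf2 of the pathway list included. The pattern of Eif4e2, which lacked the MYC peak of WT alone, was that of 869 genes (4.02%), with Eif4a3 and Map2k2 among them. Eif4a2, without MYC in either genotype, matched 625 genes (2.89%), with Eif3e, Ncbp2 and Pabpc1 among them. Mknk1 matched 217 genes (1.0%), with Eif4enif1, the gene of an eIF4E transport protein. Eif4e3 matched 737 genes (3.41%) and Eif4g3 matched 15 (0.0694%), and no gene of the pathway list had either pattern. Some absences in these patterns rest on the 1 kb window. The first listed start of Eif4g3 lies 1676 bp inside its lower end. ATAC-seq peaks covered that start in KO MycHet 2, KO 1 and KO 2, but began 1063, 1257 and 1077 bp inside the gene. The WT 1 ATAC-seq peak over the Mknk1 start began 1006 bp inside, and the WT H3K27ac peak of Eif4e began 1079 bp inside.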
